A study of Mus musculus with 24 samples.

Results

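Collagen VI is a beaded microfibril of the extracellular matrix, and 8 genes of its chains and receptors were followed here through 24 RNA-seq libraries of a dormant and a proliferative mouse mammary tumor line. The members were chosen by gene symbol (Col6a1, Col6a2, Col6a3, Col6a5, Col6a6, Antxr1, Antxr2 and Cspg4), and all 8 were found among the 55288 gene identifiers of the deposited count tables. The list was drawn up with the differences between the lines, hosts and settings of these data in view, so the number of members that passed a test describes them and supports nothing. The study set the dormant D2.1 line beside the proliferative D2A1 line, both descended from D2 hyperplastic alveolar nodules of female BALB/c mice. Each line was sequenced from culture (3 libraries a line) and as tumors implanted into the mammary fat pad of either BALB/c mice, which have an intact immune system (4 a line), or SCID-beige mice, which lack T and B cells and have defective NK cells (5 a line). The SCID-beige strain carries the scid allele of Prkdc and the bg allele of Lyst. Host mice were female, and no transgene or drug is named for these groups. Tumors were collected at about a set volume, so the lines can differ in time spent in the host. Tumors were whole pieces of tissue, so tumor cells and host cells were read together, and fewer cells of a type and less RNA per cell cannot be told apart.

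In the fibril, alpha1 and alpha2 chains (Col6a1, Col6a2) join with a longer chain, most often alpha3 (Col6a3), before secretion, and Col6a4, Col6a5 and Col6a6 encode chains that can take the place of alpha3. Fibroblasts are the best known source of collagen VI in the mammary gland, and fat, muscle and nerve tissue contain much of it. Antxr1 (TEM8) and Antxr2 (CMG2) are membrane receptors that bind collagen VI and also take up anthrax toxin, with Antxr2 known for clearing collagen VI from tissue. Cspg4 (NG2) is a membrane proteoglycan of pericytes, glial precursors and many tumor cells that binds the same fibril.

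Levels are given as CPM, a gene's counts scaled to library size by the TMM method over all 24 libraries, on the genes in both the cell table and the tumor table. Totals were 16837260 to 24818234 counts per cell library and 13566949 to 18355153 per tumor library, and no 2 replicates agreed within sampling noise. The labels do not say whether the cell libraries came from separate cultures, so p-values measure the spread between these samples, which may be technical, and limits drawn from a count of 0 cover counting error only. Since cells and tumors came in separate tables, growth setting and table cannot be told apart wherever their levels stand side by side. Some D2.1 tumors stood apart in markers of other tissues, with sums given here as CPM scaled within the tumor table. D2.1 BALB/c replicate 1 had 391 CPM of 5 milk genes, 474 CPM of 8 adipocyte genes and 414 CPM of 8 skeletal muscle genes, D2.1 BALB/c replicate 4 had 121.5 CPM of 5 skin genes, and D2.1 SCID-beige replicates 4 and 5 had 329.6 and 268 CPM of muscle genes. Each count below was repeated without these 4 tumors.

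The alpha1, alpha2 and alpha3 chains were higher in D2.1 than in D2A1 in every setting, with by far the largest fold difference in culture. D2.1 cells in culture devoted 0.224% to 0.266% of their counts to these 3 genes, and D2A1 cells 0.00170% to 0.00218%. In tumors the share was 0.802% to 0.938% for D2.1 in BALB/c, 0.666% to 0.927% for D2.1 in SCID-beige, 0.136% to 0.217% for D2A1 in SCID-beige and 0.0981% to 0.116% for D2A1 in BALB/c. D2A1 thus had its 3 groups in separate ranges, with culture lowest, while the D2.1 tumors of both hosts overlapped.

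Col6a1 (ENSMUSG00000001119, chromosome 10, 76708792 to 76726168, minus strand, mm10) encodes the alpha1 chain. D2.1 cells in culture had 1222, 1229 and 1435 CPM, against 10.4, 9.35 and 9.28 CPM in D2A1 cells. The lines did not overlap, and the D2A1 values rested on 156 to 171 counts a library. In D2.1 tumors Col6a1 stood at 3575, 4108, 3479.8 and 3681 CPM in BALB/c and at 3309, 4223, 2826, 2582 and 3713 CPM in SCID-beige, 2 sets of values that overlapped. In D2A1 tumors it stood at 400.2, 495, 497 and 456 CPM in BALB/c and at 844, 774, 752, 813 and 783 CPM in SCID-beige, with every SCID-beige tumor above every BALB/c tumor. Cultured D2.1 cells (1295 ± 121 CPM, SD, n = 3) were therefore above all D2A1 tumors, and cultured D2A1 cells (9.68 ± 0.627 CPM, n = 3) were below every other library. The line difference was 136-fold in culture (log2 fold change 7.09, SE 0.18, adjusted p = 3.8e-07), 8.07-fold in BALB/c tumors (log2 fold change 3.01, SE 0.15, adjusted p = 6.8e-07) and 4.20-fold in SCID-beige tumors (log2 fold change 2.07, SE 0.16, adjusted p = 7.9e-07), all from edgeR's quasi-likelihood test with Benjamini-Hochberg adjustment over all genes tested.

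Col6a2 (ENSMUSG00000020241, chromosome 10, 76595762 to 76623630, minus strand), the gene of the alpha2 chain, lies 85.2 kb from Col6a1 on the same strand. Its levels were 904, 891 and 882 CPM in cultured D2.1 cells and 4.14, 6.00 and 3.07 CPM in cultured D2A1 cells. D2.1 tumors had 3134, 3218, 2671 and 2939.6 CPM in BALB/c and 2664, 3019, 2395, 2130.0 and 3032 CPM in SCID-beige. The order of the groups was that of Col6a1, with the D2.1 tumors of both hosts overlapping at the top and cultured D2A1 cells at the bottom on 53 to 100 counts a library. D2A1 tumors had 226, 246, 255 and 256 CPM in BALB/c and 465, 392, 447, 465.7 and 448 CPM in SCID-beige, again without overlap. Of the members, Col6a2 had the largest line difference in culture, 206-fold (log2 fold change 7.69, SE 0.27, adjusted p = 4.8e-07), and also in BALB/c tumors (log2 fold change 3.61, SE 0.15, adjusted p = 4.8e-07), while in SCID-beige tumors it was higher by less (log2 fold change 2.58, SE 0.15, adjusted p = 6.8e-08).

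Col6a3 (ENSMUSG00000048126, chromosome 1, 90765923 to 90843971, minus strand) encodes the alpha3 chain, whose C-terminal piece is released as endotrophin, and it overlaps the annotated gene Gm36970. In culture it stood at 438, 459.5 and 435 CPM in D2.1 and at 6.69, 7.19 and 4.70 CPM in D2A1. In D2.1 tumors the values were 1853, 2165, 1834 and 2242 CPM in BALB/c and 1844, 1914, 2170.1, 2125 and 2508 CPM in SCID-beige. All 9 D2.1 tumors were above all other libraries. D2A1 tumors spread far more, with 411, 378, 229.9 and 288 CPM in BALB/c and 474, 266, 584.03, 762 and 763 CPM in SCID-beige. Replicate 2 of the SCID-beige group lay among the BALB/c values, and this D2A1 SCID-beige group overlapped cultured D2.1 cells, unlike Col6a1 and Col6a2. D2.1 was higher in culture (log2 fold change 6.19, SE 0.20, adjusted p = 4.3e-07), in BALB/c tumors (log2 fold change 2.64, SE 0.21, adjusted p = 9.7e-06) and in SCID-beige tumors (log2 fold change 1.90, SE 0.25, adjusted p = 7.5e-05).

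**Figure D1:**
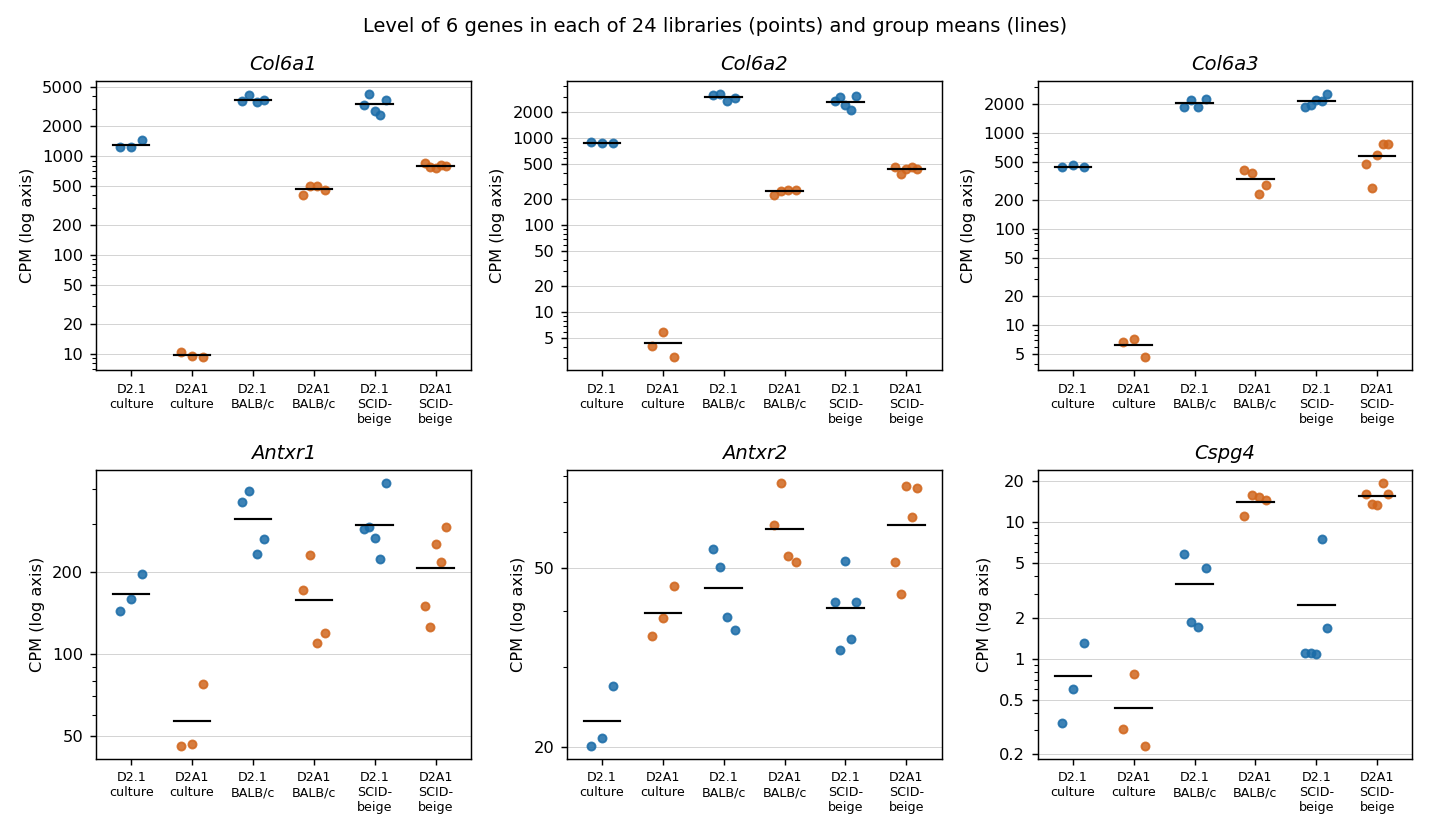
Level of 6 members in every library, in CPM scaled over all 24 libraries on a log axis, with libraries as points (D2.1 blue, D2A1 orange) and group means as lines. Cultured D2A1 cells sit between 9.28 and 10.4 CPM for Col6a1, under every other library, while all D2.1 tumors sit above all D2A1 tumors for the alpha1, alpha2 and alpha3 chains.

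The upstream sequences of these 3 genes are shown because their transcripts moved together between the lines. RefSeq promoters (GRCm38.p6) were held for 7 of the 8 members, with 2 start sites for Col6a2, and each line gives the 250 bases before a start, 5′ to 3′ on the gene's strand. Capitals mark matches on either strand to GGGCGG (a GC box), TGANTCA (an AP-1 site) or CCCTCCC (a pyrimidine-rich run), letters that were chosen after the sequences had been seen.
Col6a1, chr10:76726045-76726294: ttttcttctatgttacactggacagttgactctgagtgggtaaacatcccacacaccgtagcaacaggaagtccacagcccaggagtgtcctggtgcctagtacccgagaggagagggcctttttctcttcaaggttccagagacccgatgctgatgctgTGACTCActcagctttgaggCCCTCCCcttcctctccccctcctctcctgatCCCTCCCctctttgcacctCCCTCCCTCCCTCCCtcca
Col6a2 first start, chr10:76623405-76623654: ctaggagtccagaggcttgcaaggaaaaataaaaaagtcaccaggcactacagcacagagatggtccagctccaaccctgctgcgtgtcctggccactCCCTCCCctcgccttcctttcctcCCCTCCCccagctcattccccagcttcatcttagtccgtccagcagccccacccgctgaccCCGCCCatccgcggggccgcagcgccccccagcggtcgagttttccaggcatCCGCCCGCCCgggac
Col6a2 second start, chr10:76623631-76623880: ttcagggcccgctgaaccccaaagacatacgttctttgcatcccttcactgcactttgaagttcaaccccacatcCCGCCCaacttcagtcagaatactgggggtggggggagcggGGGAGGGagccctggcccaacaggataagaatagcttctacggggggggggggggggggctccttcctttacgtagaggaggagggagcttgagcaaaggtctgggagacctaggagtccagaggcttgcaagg
Col6a3, chr1:90843972-90844221: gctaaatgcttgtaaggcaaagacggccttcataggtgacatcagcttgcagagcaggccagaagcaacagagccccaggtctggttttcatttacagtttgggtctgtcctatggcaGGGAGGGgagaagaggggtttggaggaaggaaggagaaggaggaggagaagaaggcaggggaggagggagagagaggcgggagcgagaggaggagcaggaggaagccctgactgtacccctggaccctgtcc
CCCTCCC was matched 5 times before Col6a1, counting overlapping matches, 2 times and 1 time before the starts of Col6a2, and 1 time before Col6a3. It had no match before Col6a5, Col6a6, Antxr2 or Cspg4, and 19.7% of 32851 promoters of this length held it. TGANTCA was matched 1 time, before Col6a1, and is held by 6.7% of promoters. GGGCGG (32.7% of promoters) was matched 3 times and 1 time before the Col6a2 starts. It was also matched before Col6a5 (1 time) and before Col6a6, Antxr2 and Cspg4 (2 times each), but not before Col6a1 or Col6a3. TATAAA (12.4% of promoters) was matched before Antxr2 alone and CCAAT (33.8%) before none of the members. These are matches of letters in one window and were tied to no binding data.

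Col6a5 (ENSMUSG00000091345, chromosome 9, 105856078 to 105960643, minus strand) and Col6a6 (ENSMUSG00000043719, chromosome 9, 105687809 to 105828160, minus strand), 27.9 kb apart, encode such alternatives to alpha3 and were near the limit of detection. Neither exceeded 1.65 CPM in any library. Col6a5 had 3 counts or fewer in 13 of the 24 libraries and Col6a6 in 12, and in culture Col6a5 had 1 count over 6 libraries and Col6a6 had 0. A count of 0 allows up to 3 counts a library. Their highest values were 1.65 CPM of Col6a5 in D2.1 BALB/c replicate 4, the tumor high in skin markers, and 1.12 CPM of Col6a6 in D2A1 SCID-beige replicate 5. No difference between lines or hosts was detectable at this depth, with exact two-sided permutation p from 0.302 to 1 for Col6a5 and from 0.587 to 1 for Col6a6 over 5 comparisons each. Of these 5, Col6a5 passed the filter for edgeR only between the lines in BALB/c tumors (log2 fold change 0.52, SE 1.02, adjusted p = 0.74). The neighbouring Col6a4 gene, which is no member, reached at most 28 counts in a library and passed the filter on low counts in no comparison.

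Levels of different genes were compared only per length. In the deposited FPKM of D2.1 BALB/c tumors, Col6a1 stood at 1475 ± 100.1 FPKM (SD, n = 4) and ranked 41 among 21995 protein-coding genes. Col6a2 stood at 663 ± 59.2 FPKM and Col6a3 at 428 ± 34.5 FPKM in the same tumors. The receptors were far lower, with Antxr1 at 98.1 ± 25.0 FPKM, Antxr2 at 15.1 ± 3.29 FPKM and Cspg4 at 0.652 ± 0.388 FPKM. In cultured D2A1 cells the order turned: Antxr1 (10.6 ± 3.51 FPKM, n = 3) and Antxr2 (7.18 ± 1.04 FPKM) stood above Col6a1 (2.31 ± 0.145 FPKM), Col6a2 (0.875 ± 0.281 FPKM) and Col6a3 (0.599 ± 0.119 FPKM), in values from the cell table, whose gene lengths are not those of the tumor table. The lengths behind the FPKM were the longest transcript in the cell table (4100 bases for Col6a1, 4912 for Col6a2 and 10106 for Col6a3) and the mean transcript in the tumor table (2512, 4504 and 4715 bases). FPKM of cells and tumors were therefore not set against each other.

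Because the fibril needs its chains in fixed proportion, the ratio of chain transcripts was taken in each library. Per FPKM, Col6a1 stood above Col6a2 in all 24 libraries. In BALB/c tumors the ratio was 2.23 ± 0.128 (SD, n = 4) for D2.1 and 3.37 ± 0.218 for D2A1, and in SCID-beige tumors 2.24 ± 0.153 (n = 5) and 3.22 ± 0.202. The lines did not overlap in either host. The log2 difference was -0.60 in BALB/c (exact two-sided permutation p = 0.0286, the smallest that 4 against 4 allows, and 0.143 adjusted over 15 ratio comparisons) and -0.52 in SCID-beige (exact permutation p = 0.00794, the smallest that 5 against 5 allows, and 0.119 adjusted), so neither passed after adjustment. Hosts overlapped within each line. In culture the ratio was 1.74 ± 0.182 (n = 3) in D2.1 and 2.83 ± 0.888 in D2A1, with overlap, and 3 against 3 cannot go below an exact p of 0.1.

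The mean Col6a3 to Col6a2 ratio was also lower in D2.1 in each setting. In BALB/c tumors it was 0.648 ± 0.0670 per FPKM in D2.1 and 1.29 ± 0.392 in D2A1, without overlap (exact permutation p = 0.0286, adjusted 0.143), and in SCID-beige tumors 0.775 ± 0.143 and 1.21 ± 0.410, with overlap (exact permutation p = 0.0714, adjusted 0.25). In culture it was 0.242 ± 0.00789 in D2.1 and 0.704 ± 0.107 in D2A1, without overlap. The Col6a3 to Col6a1 ratio overlapped between the lines in BALB/c tumors (log2 difference -0.35, exact permutation p = 0.229). It also overlapped in SCID-beige tumors (log2 difference -0.07, exact permutation p = 0.825). In culture it was lower in D2.1 without overlap (log2 difference -0.87, exact permutation p = 0.1). None of the 15 ratio comparisons passed after adjustment. The differences between the lines do not depend on the gene length used, but the ratios themselves do: with the longest transcript in both tables, Col6a1 to Col6a2 was 1.49 in D2.1 BALB/c tumors and 2.25 in D2A1 BALB/c tumors.

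**Figure D2:**
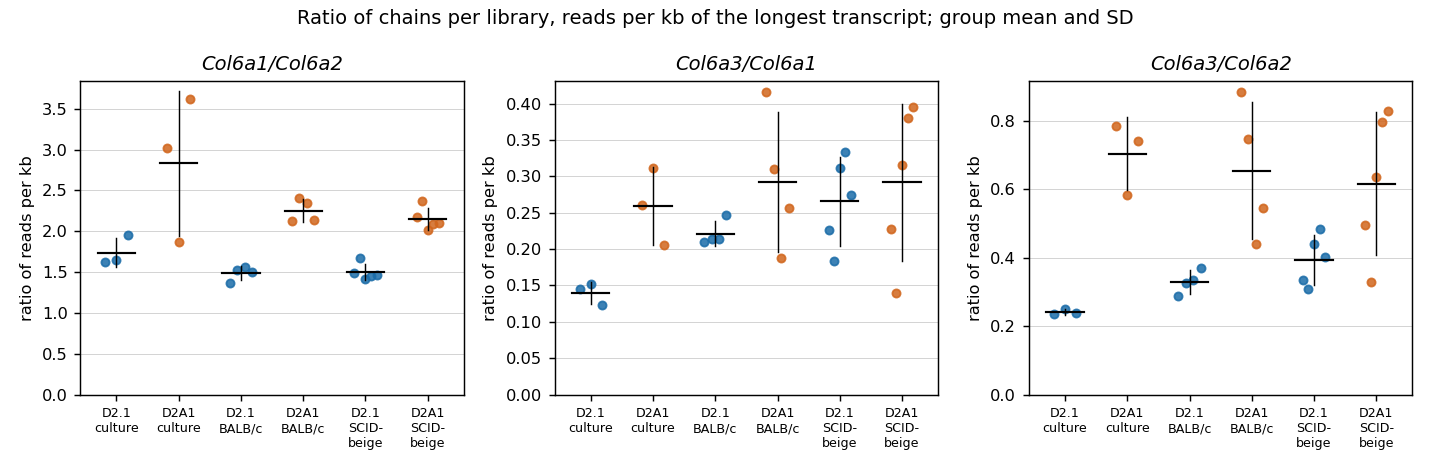
Ratios of the alpha chain transcripts per base of the longest transcript in each library, on a linear axis from 0, with libraries as points (D2.1 blue, D2A1 orange), horizontal lines for group means and vertical lines for the SD. For Col6a1 to Col6a2 the D2.1 tumors (1.37 to 1.68 over both groups) sit below the D2A1 tumors (2.01 to 2.41) in both hosts without overlap.

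Antxr1 (ENSMUSG00000033420, chromosome 6, 87133853 to 87335821, minus strand, overlapped by 7 other annotated genes) is the first of both anthrax toxin receptors. In culture it stood at 143, 159 and 196 CPM in D2.1 cells and 46.3, 47.1 and 77.6 CPM in D2A1 cells, without overlap. It was higher in D2.1 by 2.98-fold (log2 fold change 1.57, SE 0.21, adjusted p = 0.00044). D2.1 tumors had 358, 394, 231 and 263 CPM in BALB/c and 286, 290.4, 266, 223 and 423 CPM in SCID-beige, and D2A1 tumors had 171, 229.8, 110.1 and 119.7 CPM in BALB/c and 149.5, 125, 253, 216.6 and 291 CPM in SCID-beige. In BALB/c all D2.1 tumors were above all D2A1 tumors, although by little at the nearest pair, and the difference passed (log2 fold change 0.99, SE 0.26, adjusted p = 0.015). Without the 2 D2.1 tumors high in milk, muscle or skin markers it had the same size and did not pass (log2 fold change 0.99, adjusted p = 0.062). In SCID-beige the lines overlapped and the difference did not pass (log2 fold change 0.53, SE 0.24, adjusted p = 0.10), but it did without D2A1 SCID-beige replicate 5 (log2 fold change 0.68, adjusted p = 0.042) and with the replicate number as a block (log2 fold change 0.56, adjusted p = 0.030).

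Antxr2 (ENSMUSG00000029338, chromosome 5, 97882783 to 98031043, minus strand, overlapping C430019N01Rik) ran the other way. Cultured D2.1 cells had 20.1, 20.9 and 27.2 CPM and cultured D2A1 cells 35.2, 38.6 and 45.4 CPM, without overlap, and the gene was lower in D2.1 (log2 fold change -0.77, SE 0.16, adjusted p = 0.0044). In BALB/c tumors the values were 54.8, 50.1, 38.9 and 36.4 CPM for D2.1 and 62.0, 77.1, 53.0 and 51.5 CPM for D2A1, and in SCID-beige tumors 41.9, 32.7, 51.8, 34.7 and 41.9 and 51.4, 43.7, 75.9, 64.9 and 75.0 CPM. The lines overlapped in both hosts. The BALB/c difference did not pass (log2 fold change -0.43, SE 0.20, adjusted p = 0.12), but it did with the replicate number as a block (log2 fold change -0.43, adjusted p = 0.013). The SCID-beige difference passed (log2 fold change -0.61, SE 0.19, adjusted p = 0.026) and was lost without any one of D2A1 SCID-beige replicates 3, 4 and 5 (adjusted p = 0.069, 0.053 and 0.056) or without the 2 D2.1 tumors high in muscle markers (adjusted p = 0.10).

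Cspg4 (ENSMUSG00000032911, chromosome 9, 56865033 to 56899870, plus strand) was almost silent in culture, with 4 to 23 counts a library in both lines, and was too low to enter the fit there. In tumors it was higher in D2A1, the reverse of the chains. D2A1 tumors had 11.02, 15.8, 15.2 and 14.4 CPM in BALB/c and 16.1, 13.5, 13.2, 19.4 and 16.04 CPM in SCID-beige, all above every D2.1 tumor. D2.1 tumors had 5.80, 1.85, 1.72 and 4.63 CPM in BALB/c and 1.09, 1.11, 1.08, 7.46 and 1.68 CPM in SCID-beige. D2.1 was lower in BALB/c (log2 fold change -2.0, SE 0.40, adjusted p = 0.0038) and in SCID-beige (log2 fold change -2.65, SE 0.52, adjusted p = 0.0015). Without D2.1 SCID-beige replicate 4 the SCID-beige difference was larger (log2 fold change -3.69, adjusted p = 7.2e-07). Without all 4 tumors high in markers of other tissues both were larger (log2 fold change -2.99, adjusted p = 0.00055 in BALB/c and log2 fold change -3.84, adjusted p = 2.8e-06 in SCID-beige). Within D2.1, the highest values belonged to BALB/c replicates 1 and 4 and SCID-beige replicate 4, which are 3 of the 4 tumors with high milk, skin or muscle markers. Whether those tissues carried the Cspg4 counts was not tested.

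**Figure D3:**
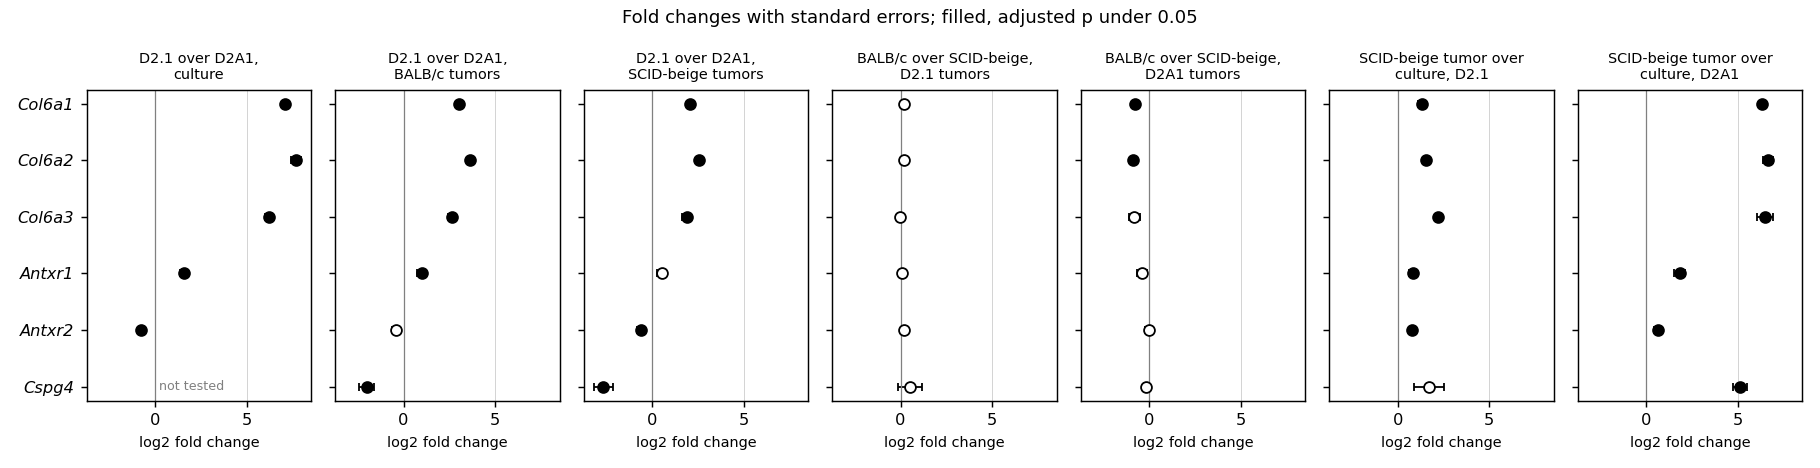
Log2 fold change of 6 members in the 7 comparisons of line, host and growth setting, from edgeR, with bars for the standard error and filled points for an adjusted p under 0.05. The alpha1, alpha2 and alpha3 chains lie right of 0 in all 3 line comparisons (1.90 to 7.69) and Cspg4 lies left of 0 in both tumor comparisons.

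Counted by comparison, 4 of the 5 members tested were higher in cultured D2.1 cells, where 24.2% of all 12489 genes tested were higher, and 1 was lower, where 20.7% of genes were. The members' median log2 fold change was 6.19, against -0.017 over all genes. In BALB/c tumors 4 of 7 members tested were higher in D2.1 (16.8% of all genes) and 1 was lower (15.8% of all genes), with a median of 0.99 against -0.019. In SCID-beige tumors 3 of 6 were higher (17.2% of all genes) and 2 were lower (14.8% of all genes), with a median of 1.21 against 0.018. The chains accounted for 3 of the higher members in each of these comparisons.

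The host comparison asks whether the members differ between tumors grown with and without an adaptive immune system. In D2.1 tumors edgeR called 0 of 6 members tested in either direction, 0 had an unadjusted p under 0.05, DESeq2 called 0, and 0.891% of all genes were called. The log2 fold change of BALB/c over SCID-beige was 0.19 for Col6a1 (SE 0.17), 0.21 for Col6a2 (SE 0.15) and -0.03 for Col6a3 (SE 0.15). D2A1 tumors had lower Col6a1 (log2 fold change -0.78, SE 0.13, adjusted p = 0.017) and Col6a2 (log2 fold change -0.85, SE 0.12, adjusted p = 0.011) in BALB/c, 2 of 6 members tested where 0.261% of all genes were lower. Col6a3 differed by a like amount without passing (log2 fold change -0.80, SE 0.29, adjusted p = 0.31), and its groups overlapped. The Col6a1 call was lost without D2A1 BALB/c replicate 1 or 4 or D2A1 SCID-beige replicate 1 (adjusted p = 0.063, 0.090 and 0.054), and Col6a3 passed without D2A1 SCID-beige replicate 2 (adjusted p = 0.0495). The test of the difference between the lines' host effects called 0 of 7 members in edgeR, where 3 had an unadjusted p under 0.05 and 0.0187% of all genes were called, with the smallest p for Col6a1 (log2 fold change 0.94, SE 0.20, adjusted p = 0.12) and Col6a2 (log2 fold change 1.03, SE 0.18, adjusted p = 0.059). DESeq2 called both of these (adjusted p = 0.00037 and 4.1e-07), and edgeR called Col6a2 with DESeq2's size factors (adjusted p = 0.038), without D2.1 SCID-beige replicate 4 (adjusted p = 0.041) or without D2A1 SCID-beige replicate 2 (adjusted p = 0.048).

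The last set of comparisons puts SCID-beige tumors against the same line in culture. In D2.1, 5 of 6 members tested were higher in tumors, where 30.8% of all genes were: Col6a3 rose most (log2 fold change 2.22, SE 0.18, adjusted p = 2.7e-06), followed by Col6a2 (log2 fold change 1.54, SE 0.17, adjusted p = 3.8e-05) and Col6a1 (log2 fold change 1.33, SE 0.19, adjusted p = 0.00022). Antxr1 (0.82, adjusted p = 0.0079) and Antxr2 (0.81, adjusted p = 0.0062) rose by less. Cspg4 was 1.71 on the same scale and did not pass (adjusted p = 0.094). In D2A1 all 6 members tested were higher in tumors, where 33.6% of all genes were, with the largest log2 fold changes for Col6a2 (6.62, adjusted p = 1.9e-08), Col6a3 (6.49, adjusted p = 3.6e-07), Col6a1 (6.33, adjusted p = 4.3e-09) and Cspg4 (5.11, adjusted p = 1e-06, or 5.80 without D2A1 culture replicate 2). Cspg4 passed the filter here only through the D2A1 tumors, with 192 to 316 counts a library against 4 to 13 in culture. Its place among the 6 thus depended on the group where it was high. Antxr2 changed least (0.62, adjusted p = 0.025), and its call was lost without D2A1 culture replicate 1 or 2 or D2A1 SCID-beige replicate 3 (adjusted p = 0.11, 0.081 and 0.057).

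The interaction test, which sets the change from culture to tumor in D2.1 against that in D2A1, called 4 of 8 members lower, where 8.18% of all genes were. The 8 include Col6a5 (SE 2.45) and Col6a6 (SE 576), with at most 1 count and 0 counts in a culture library. Their change from culture cannot be estimated. Col6a5, Col6a6 and Cspg4 entered this fit only through tumor libraries. The members called lower are listed next. The 4 were Col6a1 (log2 fold change -5.01, SE 0.24, adjusted p = 3.6e-10), Col6a2 (log2 fold change -5.10, SE 0.28, adjusted p = 1.8e-09), Col6a3 (log2 fold change -4.29, SE 0.39, adjusted p = 6.2e-07) and Cspg4 (log2 fold change -3.40, SE 0.94, adjusted p = 0.021). As fold changes, the chains therefore rose far more in D2A1, from the low level of its cultured cells. In CPM the rise was larger in D2.1. Mean Col6a1 went from 1295 to 3331 CPM in D2.1 and from 9.68 to 793 CPM in D2A1. Mean Col6a2 went from 893 to 2648 CPM in D2.1 and from 4.40 to 443 CPM in D2A1. Mean Col6a3 went from 444 to 2112 CPM in D2.1 and from 6.19 to 570 CPM in D2A1. The Cspg4 call was lost without D2.1 culture replicate 3, D2A1 culture replicate 1 or D2A1 culture replicate 3 (adjusted p = 0.097, 0.068 and 0.0675). With single libraries left out its log2 fold change ranged from -4.42 without D2.1 SCID-beige replicate 4 to -2.78 without D2.1 culture replicate 3, and was -4.11 without D2A1 culture replicate 2. Antxr1 (log2 fold change -1.04, SE 0.37, adjusted p = 0.076) and Antxr2 (log2 fold change 0.17, SE 0.29, adjusted p = 0.79) did not pass, although Antxr1 did without D2A1 culture replicate 3 (adjusted p = 0.038), D2.1 SCID-beige replicate 5 (adjusted p = 0.035) or D2A1 SCID-beige replicate 2 (adjusted p = 0.027) and with the replicate block (adjusted p = 0.012).

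Summed fibroblast markers were higher in D2.1 than in D2A1 tumors, as the chains were, but between the hosts of D2A1 tumors they overlapped, where Col6a1 and Col6a2 did not. The summed level of 8 fibroblast markers was 577 to 827 CPM in D2.1 BALB/c tumors, 347 to 842 CPM in D2.1 SCID-beige tumors, 243 to 282 CPM in D2A1 BALB/c tumors and 196 to 337 CPM in D2A1 SCID-beige tumors, scaled within the tumor table. All 8 markers had over 3 counts in every tumor except D2.1 SCID-beige replicate 3, where 7 had. They did not move as a block, and Pdgfra, which cultured D2.1 cells also express, carried much of the D2.1 sum. Pdgfra stood at 401 CPM and Dpt at 152 CPM in D2.1 BALB/c tumors against 30.1 and 14.8 CPM in D2A1 BALB/c tumors, while Col15a1 (25.5 against 93.3 CPM), Cd34 (31.6 against 55.2 CPM) and Scara5 (10.9 against 41.3 CPM) went the other way. Their part in the chain levels of tumors was not tested. In culture, where no host cells are present, the sum was 60.4 to 82.9 CPM in D2.1 and 4.96 to 11.2 CPM in D2A1, scaled within the cell table. Pdgfra made up most of it (1039 to 1427 counts a library in D2.1 and 82 to 203 in D2A1), while Dpt had 0 to 8 counts and Pi16 at most 2 in any cell library, and Col15a1, Dpep1 and Dpt were at 0 in all 3 D2A1 libraries.

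Pericyte, endothelial and epithelial markers are given because Cspg4 and the receptors are known from such cells. Marker values here are scaled within the cell table for culture and within the tumor table for tumors. Pericyte and mural markers summed to 724 to 936 CPM in D2.1 BALB/c, 565 to 939 CPM in D2.1 SCID-beige, 400.4 to 596 CPM in D2A1 BALB/c and 516 to 857 CPM in D2A1 SCID-beige tumors, with 7 or 8 of 8 markers over 3 counts in each tumor. The sums, lower in D2A1 in BALB/c and overlapping in SCID-beige, were mostly Pdgfrb and Acta2, which both lines also express in culture (86.1 and 208.7 CPM in D2.1, 43.7 and 14.8 CPM in D2A1). Of the markers near 0 in culture, several had higher means in D2A1 tumors, as Cspg4 had: Abcc9 stood at 5.63 CPM against 3.83 CPM in D2.1 in BALB/c and at 6.33 against 2.28 CPM in SCID-beige, Ndufa4l2 at 7.29 against 3.61 CPM in BALB/c, and Kcnj8 at 4.71 against 1.65 CPM in SCID-beige. Others did not, such as Rgs5 in SCID-beige (15.8 against 16.9 CPM), Kcnj8 in BALB/c (3.92 against 4.39 CPM) and Ndufa4l2 in SCID-beige (7.34 against 8.26 CPM). Summed endothelial markers were higher in D2A1 tumors (242 to 335 CPM) than in D2.1 tumors (82.6 to 184 CPM), although Vwf, 1 of the 8, went the other way in both hosts (7.86 against 20.7 CPM in BALB/c and 5.21 against 11.2 CPM in SCID-beige). In culture, the 5 epithelial tumor cell markers summed to 2345 to 4649 CPM in D2.1 and 130 to 340 CPM in D2A1, so both lines carried keratins, with Epcam at 1 to 16 counts a library. In tumors the same markers overlapped between the lines in both hosts. They summed to 359 to 545 CPM in D2.1 and 513 to 597 CPM in D2A1 in BALB/c, and to 469 to 1232 and 443 to 881 CPM in SCID-beige. The part of these cells in the levels of Antxr1, Antxr2 and Cspg4 was not tested.

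**Figure D4:**
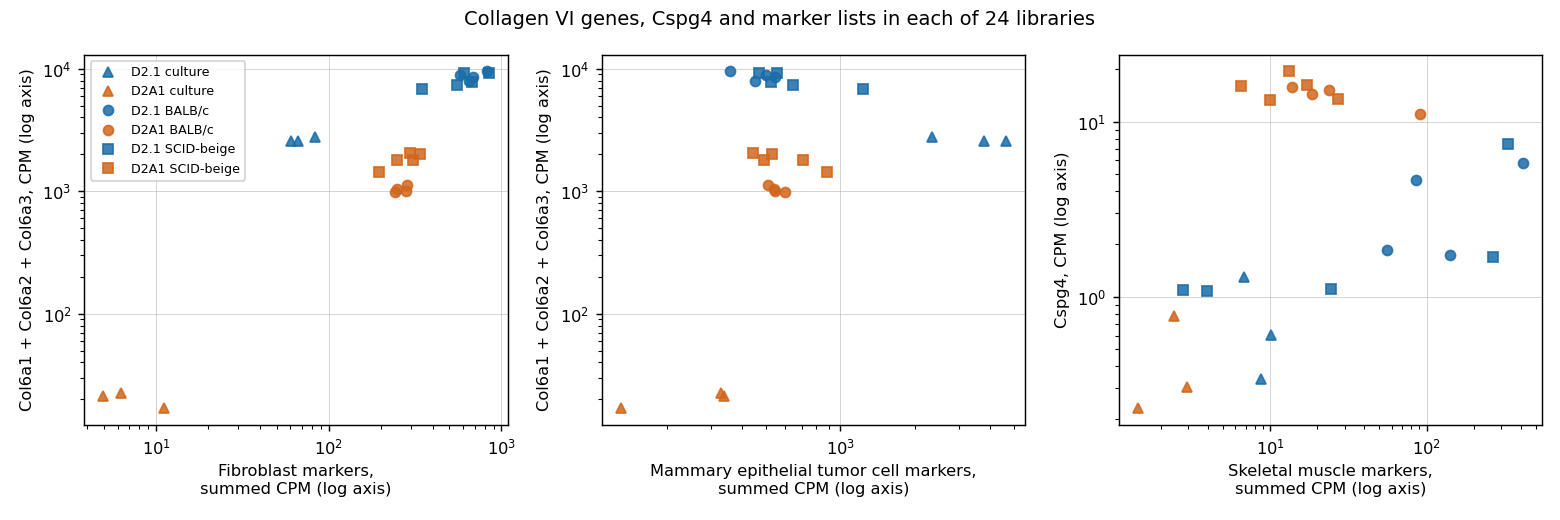
Summed CPM of Col6a1, Col6a2 and Col6a3 in each library against the summed fibroblast markers (left) and the epithelial tumor cell markers (middle), and CPM of Cspg4 against the skeletal muscle markers (right), all on log axes, with a point for each library. Marker sums are scaled within the cell table or the tumor table, and chain and Cspg4 values over all libraries. Fibroblast sums are higher in D2.1 tumors (347 to 842 CPM) than in D2A1 tumors (196 to 337 CPM). Cultured D2.1 cells lie below the D2A1 tumors in fibroblast markers, across these unlike scalings. They lie above them in the sum of the 3 chains, although not in Col6a3 alone.

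Within groups the members did not all vary together. Over the 18 tumors, after subtracting each group's mean log2 CPM, Col6a1 and Col6a2 had r = 0.86, whereas Col6a3 had r = -0.07 with Col6a1 and r = 0.21 with Col6a2. Col6a3 went instead with Antxr1 (r = 0.74), and Antxr1 with Antxr2 (r = 0.80). These correlations describe libraries that share depth and tissue makeup. By the same measure the summed fibroblast markers had r = 0.78 with Col6a2, r = 0.56 with Col6a1, r = 0.47 with Col6a3, r = 0.74 with Antxr1, r = 0.56 with Antxr2 and r = -0.52 with Cspg4, and the pericyte markers r = 0.78 with Antxr1 and r = 0.66 with Col6a3. The epithelial tumor cell markers ran against the chains and receptors other than Cspg4 (r = -0.55 with Col6a1, -0.70 with Col6a2, -0.50 with Col6a3, -0.64 with Antxr1 and -0.46 with Antxr2), and macrophage markers had r = -0.61 with Col6a3. For Cspg4 the values were r = 0.64 with epithelial and r = 0.59 with muscle markers. D2.1 SCID-beige replicate 4 was the highest of its group in Cspg4 (7.46 CPM), muscle markers (329.6 CPM) and epithelial markers (1232 CPM, others 469 to 645 CPM). It was also the lowest of its group in Col6a1 (2582 CPM), Col6a2 (2130 CPM) and fibroblast markers (347 CPM). No correlation was taken without this tumor.

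By the same within-group measure over 12708 protein-coding genes, the genes most like Col6a1 were Fmnl3 (r = 0.89), Tcf7l1 (r = 0.85) and Arfgap3 (r = 0.83). For Col6a2 they were Syt11 (r = 0.84), S1pr3 (r = 0.83) and Lhfp (r = 0.81), and for Col6a3 Zfp146 (r = 0.91), Fan1 (r = 0.91) and Fam83d (r = 0.90). Antxr1 was followed by Fam8a1 (r = 0.95), Il6st (r = 0.95) and Casd1 (r = 0.95), and Antxr2 by Tgfbr2 (r = 0.95), Ubtd2 (r = 0.94) and Rybp (r = 0.94). Cspg4 was followed by Atg9b (r = 0.93), Plau (r = 0.91) and Ppp2cb (r = 0.89). No gene was shared between these lists of 3. The genes were picked as the highest r of all those compared, so the size of r is no test. Without subtracting group means, Fam83d had r = -0.31 with Col6a3 and Tgfbr2 had r = -0.24 with Antxr2, while the other genes listed had r above 0.

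Of the other collagen receptors (the integrin subunits Itga1, Itga2, Itga10, Itga11 and Itgb1 and the kinases Ddr1 and Ddr2), 1 of 6 tested was higher and 0 lower in cultured D2.1 cells, 2 of 7 higher and 2 lower in BALB/c tumors, and 3 of 7 higher and 2 lower in SCID-beige tumors. Itga11, the alpha subunit of a receptor for fibrillar collagen, was the receptor that was higher in all 3 (5.76, adjusted p = 0.00023 in culture, 3.05, adjusted p = 0.00067 in BALB/c and 2.53, adjusted p = 0.020 in SCID-beige). Itga10 and Itgb1 were lower in D2.1 tumors of both hosts. Of all genes tested 24.2%, 16.8% and 17.2% were higher in D2.1 in culture, BALB/c and SCID-beige, and 20.7%, 15.8% and 14.8% were lower. The list's medians were 0.00, 0.07 and -0.54, against all-gene medians of -0.017, -0.019 and 0.018.

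Matrix partners of collagen VI split between the lines. In cultured D2.1 cells 3 of 7 tested were higher and 3 lower, where 24.2% of all genes were higher and 20.7% lower. In BALB/c tumors 5 of 10 were higher and 3 lower (16.8% and 15.8% of all genes). In SCID-beige tumors 4 of 10 were higher and 4 lower (17.2% and 14.8% of all genes). The medians were 0.36, 0.50 and 0.01. The adaptor proteins Matn2 (4.63, adjusted p = 4.2e-07 in culture, 5.18, adjusted p = 6.8e-07 in BALB/c and 5.22, adjusted p = 1e-09 in SCID-beige) and Matn4 (4.57, adjusted p = 0.00035, 7.10, adjusted p = 2.1e-06 and 7.87, adjusted p = 4.2e-07), which link collagen VI to other matrix, were higher in D2.1 in all 3. The small proteoglycans Dcn (3.02, adjusted p = 2.9e-05 and 3.47, adjusted p = 2.5e-06) and Lum (3.15, adjusted p = 0.00046 and 2.95, adjusted p = 5.9e-05) were higher in D2.1 tumors of both hosts. The basement membrane chains Col4a1 (-11.19, adjusted p = 4.3e-07 in culture, -1.89, adjusted p = 0.00024 in BALB/c and -3.01, adjusted p = 2e-06 in SCID-beige) and Col4a2 (-10.58, adjusted p = 4.3e-07, -2.25, adjusted p = 8.9e-06 and -3.33, adjusted p = 2.1e-07) were lower in D2.1 in all 3, the reverse of the alpha1 to alpha3 chains of collagen VI.

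Genes that modify, assemble or cut collagen chains were more often called higher than lower in D2.1, with 9 of 13 higher and 1 lower in culture, 8 of 14 higher and 1 lower in BALB/c tumors, and 4 of 14 higher and 0 lower in SCID-beige tumors, where 6 had an unadjusted p under 0.05. Of all genes 24.2%, 16.8% and 17.2% were higher in these comparisons, and 20.7%, 15.8% and 14.8% were lower. The list's medians were 0.68, 0.63 and 0.26. The 4 that were higher in all 3 comparisons were P4ha1 and P4ha3, subunits of prolyl 4-hydroxylase, the collagen chaperone Serpinh1, and the gelatinase Mmp2. The log2 fold change of P4ha3 was 3.20 in culture, 3.26 in BALB/c and 3.08 in SCID-beige, and that of Mmp2 5.24, 1.94 and 1.72, and the highest adjusted p among them was 8.3e-04, for Mmp2 in BALB/c. Between hosts edgeR called 0 genes of these 3 lists in either line. Of all genes edgeR called 0.891% in D2.1 tumors and 1.17% in D2A1 tumors. Unadjusted p was under 0.05 for 1 receptor, 2 matrix partners and 0 assembly genes in D2.1 tumors, where DESeq2 called 0. In D2A1 tumors it was for 1, 5 and 3, where DESeq2 called 0, 1 and 2. Among all genes it was under 0.05 for 1489 of 14929 in D2.1 tumors and 1472 of 14572 in D2A1 tumors.

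**Figure D5:**
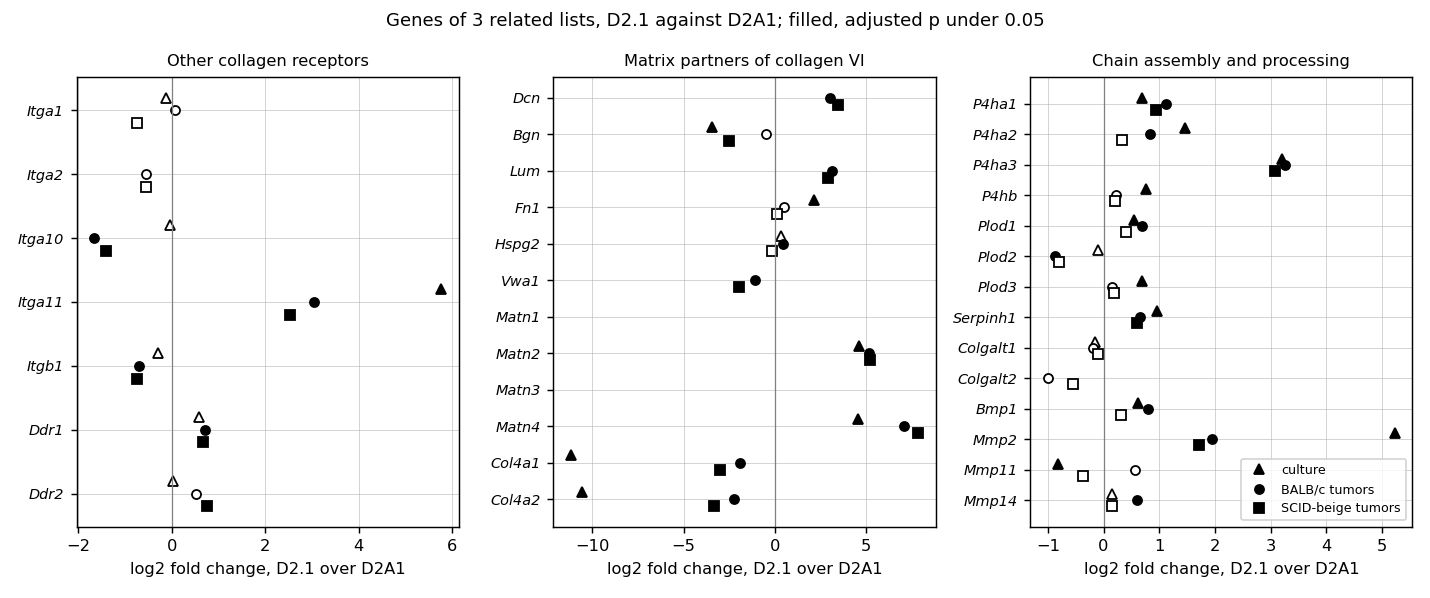
Log2 fold change of D2.1 over D2A1 for the other collagen receptors, the matrix partners and the chain assembly genes in culture, BALB/c tumors and SCID-beige tumors, with filled points for an adjusted p under 0.05. Matn2 and Matn4 lie at 4.57 to 7.87, while Col4a1 and Col4a2 lie at -11.19 to -1.89.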

How the data were processed

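Total RNA of 6 libraries of cultured cells and 18 of snap-frozen tumors was sequenced on an Illumina NovaSeq, and the submitters' processing notes name STAR and mm10. The program that counted reads, its annotation and its use of strand are not given in the sources used here, so reads of overlapping genes cannot be told apart. The authors deposited raw counts per gene and FPKM per gene, each in 1 table of cells and 1 of tumors. The deposited FPKM imply a different gene length in each table for 82.3% of 12150 genes (by over 10%). GENCODE M21 symbols matched 34490 of 35275 identifiers of the cell table and 54495 of 54532 of the tumor table, and rows without one held at most 0.117% of a library's counts. No column was left unused for want of a sample.

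Counts were fitted in edgeR 4.0.16 (R 4.3.3) with TMM scaling, filterByExpr and the robust quasi-likelihood test, on the groups compared, over all genes that passed the filter, with Benjamini-Hochberg adjustment and a threshold of 0.05. A host effect is BALB/c minus SCID-beige. Single values and ratios were compared by exact two-sided permutation over samples. Alternatives were DESeq2 1.42.0, its size factors in edgeR, no filter, a filter of 10 counts, the replicate number as a block, 1 fit of all tumors, other gene lengths and each library left out. Leaving out tumors high in markers of other tissues and using the longest transcript were chosen after seeing the data. The fits were tested on simulated counts. The members and gene lists were chosen with earlier results of these data known. Named were all 8 members, the genes of the lists, and for each member the 3 genes with the highest within-group correlation over the tumors.

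Same-numbered replicates deviated together, with every r over 0.1, between the lines in culture (0.184 to 0.491) and in BALB/c (0.100 to 0.491). So did those of D2A1 tumors and culture (0.131 to 0.273). They did not in the other comparisons. This hint of pairing came from the data and not from the labels, and no main test used it. The replicate number entered only as a block in an alternative fit.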

Additional observations from a re-analysis of the deposited data

Results flagged for a closer look

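Over 44 groups of values, 4 had a library far from the others by Dixon's criterion, and chance alone gives about 1 in 20 groups. Col6a2 was low in D2A1 SCID-beige replicate 2, at 392 CPM against 447 CPM in the next library. Cspg4 was high in D2.1 SCID-beige replicate 4, at 7.46 CPM against 1.68 CPM in the next, and this tumor also had the most muscle markers of its group (329.6 CPM). The Col6a1 to Col6a2 ratio per FPKM was high in D2.1 SCID-beige replicate 2, at 2.51 against 2.23 in the next. The Col6a3 to Col6a1 ratio was high in D2.1 BALB/c replicate 4, at 0.324 against 0.281.

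The change from culture to SCID-beige tumor differed between the lines for 4 members, by the interaction test in edgeR, with log2 values for D2.1 minus D2A1 of -5.01 for Col6a1, -5.10 for Col6a2, -4.29 for Col6a3 and -3.40 for Cspg4. Growth setting and table cannot be told apart in these values, although both lines share that limit. Cspg4 entered this fit only through its tumor counts.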

How the results depend on the processing

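The line differences of Col6a1, Col6a2 and Col6a3 kept their direction and call in every alternative run. Of 947 member fold changes under alternatives, 918 kept direction and call, 13 gained a call, 16 lost one and none that was called reversed. The counts between hosts moved most. For D2.1 tumors 133 genes were called, against 461 with DESeq2, 275 without the filter, 261 in 1 fit of all tumors, 0 without the tumors high in markers of other tissues and 26 to 314 with a library left out. For D2A1 tumors 170 were called, against 565 with DESeq2 and 27 to 172 with a library left out, and 2 members, against 1 to 3. For the interaction of line and host 3 were called (1355 at an unadjusted p under 0.05), against 6 with DESeq2's size factors (1 member), 102 with DESeq2 (2 members), 7 without the filter, 0 without the marker-high tumors and 0 to 12 with a library left out (0 to 1 member). The cause was not tested.

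With the replicate block, 14 genes were called for the D2.1 host effect, and 0 genes and 0 members for the D2A1 host effect (adjusted p = 0.44 for Col6a1 and 0.35 for Col6a2), where the numbers did not pair the samples. The block also brought Antxr1 under the threshold in SCID-beige tumors (adjusted p = 0.030) and in the interaction of line and setting (adjusted p = 0.012), and beside Antxr2 in BALB/c it changed no other call of a member. In no comparison did every sample correlate best with its own number.

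With 3 to 5 samples a group and 3 counts as the least a library can show, depth limits what the comparisons of Col6a5 and Col6a6 can detect.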
